A study of Mus musculus with 4 samples.

Results

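The genes described here encode the glycoproteins, integrin chains, lectin receptor and alpha granule proteins that a megakaryocyte passes on to its platelets: Itga2b, Itgb3, Gp1ba, Gp1bb, Gp5, Gp6, Gp9, Clec1b, Vwf and Selp. They were set against the platelet chemokine gene Ppbp, whose signal was much higher after treatment. The list was chosen by function, and a gene was measured where the platform annotation gave a probe set its symbol alone. This held for 8 of the 10 genes, out of 30142 genes in all. Gp1ba had no such probe set, the probe set of Gp1bb is shared with another symbol, and neither is analysed here. Each of the 8 had a single probe set.

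The samples were lineage-negative and c-Kit-positive (LK) cells, a fraction rich in blood stem and progenitor cells, of NOD mice, a strain that develops autoimmune diabetes. They were kept in StemSpan medium for 4 h at 37 °C. The 2 vehicle samples received DMSO, and the 2 combination samples received dimethyl prostaglandin E2 (dmPGE2, 10 µM), a long-lived prostaglandin analog, together with dexamethasone (10 µM), a synthetic glucocorticoid. No other genetic change or treatment is named in the labels, and they do not say how old the mice were or how many gave cells to a sample. No sample received a single drug. The design text calls the duplicates biological but not what set them apart, and p-values measure the spread between these samples, which may be partly technical.

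Megakaryocytes are the marrow cells that shed platelets, and they share a progenitor with the erythroid line. Their surface carries the GPIb-IX-V complex, which catches von Willebrand factor, the integrin alphaIIb beta3, which binds fibrinogen, and the activating receptors GPVI and CLEC-2. Alpha granules store von Willebrand factor, P-selectin and chemokines such as platelet factor 4. Itga2b (CD41) is also present on early progenitors, and some of these genes are used to mark stem cells with a bias towards platelets.

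The stretches of 250 bases before the start site are shown for Gp5, the gene furthest below vehicle, for Itga2b, the classic surface marker CD41, and for the neighbouring chemokine genes Pf4 and Ppbp, which behaved differently. They are from RefSeq, build GRCm38.p6, and read 5′ to 3′ along the gene's strand. Capitals mark GATAA, the core bound by GATA factors, and AGGAAG, a core bound by ETS factors, on either strand (TTATC and CTTCCT).
Gp5, chr16:30310782-30311031, minus strand: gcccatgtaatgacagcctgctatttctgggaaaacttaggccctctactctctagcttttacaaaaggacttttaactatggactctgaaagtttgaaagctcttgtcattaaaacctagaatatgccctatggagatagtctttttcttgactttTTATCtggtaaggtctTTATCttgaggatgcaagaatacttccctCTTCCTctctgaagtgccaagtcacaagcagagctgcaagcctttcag
Itga2b, chr11:102469884-102470133, minus strand: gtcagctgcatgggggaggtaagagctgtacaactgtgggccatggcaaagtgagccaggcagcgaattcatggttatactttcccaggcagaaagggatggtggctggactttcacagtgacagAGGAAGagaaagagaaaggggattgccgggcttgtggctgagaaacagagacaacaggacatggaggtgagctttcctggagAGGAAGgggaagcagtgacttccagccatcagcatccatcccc
Pf4, chr5:90772185-90772434, plus strand: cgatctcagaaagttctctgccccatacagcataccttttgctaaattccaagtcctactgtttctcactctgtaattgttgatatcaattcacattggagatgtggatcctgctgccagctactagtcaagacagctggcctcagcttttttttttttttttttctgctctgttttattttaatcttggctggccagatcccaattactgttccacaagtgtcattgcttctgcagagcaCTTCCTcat
Ppbp, chr5:90768268-90768517, plus strand: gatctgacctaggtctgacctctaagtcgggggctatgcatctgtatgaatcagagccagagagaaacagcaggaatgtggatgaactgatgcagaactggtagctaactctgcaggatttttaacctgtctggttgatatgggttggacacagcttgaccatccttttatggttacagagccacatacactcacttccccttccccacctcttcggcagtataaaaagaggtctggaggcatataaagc
The starts of the Ppbp and Pf4 windows lie 3917 bases apart. The Gp5 window held GATAA 2 times and AGGAAG 1 time, the Itga2b window AGGAAG 2 times, the Pf4 window AGGAAG 1 time and the Ppbp window neither. The table holds windows for 8 of the 10 listed genes, all but Itgb3 and Vwf. Of these 8 windows, 5 held GATAA and 5 held AGGAAG, against 22.6% and 29.5% of all 32851 windows of this length in the table. TGACG, a core of cAMP response elements, and AGAACA, a core of glucocorticoid response elements, were searched on both strands too (CGTCA and TGTTCT). Neither was found in the windows of the 8 listed genes or of Pf4 and Ppbp, and 17.8% and 16.1% of all windows held them. No motif contains another of the 4. A match or its lack describes these letters only.

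Signals are log2 RMA values, given as mean ± SD (n = 2) or for each array, and a difference is the combination minus the vehicle. RMA is the array method that removes background, aligns the arrays and joins the probes of a gene. Signals of different probe sets are compared only in the summed linear signals of lists, where bright probe sets weigh most. The highest single background probe set was at 5.55, and a signal below it may understate a difference.

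None of the 8 genes passed limma's test at an adjusted p of 0.05, a threshold that 0.00303% of all 65956 features passed. At an unadjusted p under 0.05, 1 of the 8 genes, Gp5, was lower after the combination and 0 were higher, against 2.44% and 3.14% of all features. Without an array these counts changed, and the Gp5 difference lay between -1.39 and -0.70. Counts from fits on 3 arrays, here and below, have no share of all features beside them. Both combination arrays lay below both vehicle arrays for 3 genes, Gp5, Clec1b and Vwf, and above both for 0, against 13.9% and 20.4% of all features. These counts also changed with an array left out. With 3 arrays fewer values have to stand apart, and no share of all features is given for them. Of the 8 differences, 4 were above 0 and 4 below it, with a median of -0.16 against 0.02 over all features. That median was 0.06 at its highest and -0.47 at its lowest with an array left out. Signals of bulk cells cannot tell fewer cells of a type from less RNA per cell.

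The GPIb-IX-V complex had the member furthest from vehicle. Gp5, its glycoprotein V subunit and a target of thrombin, was at 6.05 and 5.37 on the vehicle arrays and at 4.80 and 4.53 on the combination arrays. The groups did not overlap, and the nearest arrays were 0.57 apart. The means were 5.71 ± 0.48 and 4.67 ± 0.19, a difference of -1.04 (SE 0.27), or 2.06-fold lower, with a 95% interval from -1.77 to -0.32. Limma's unadjusted p was 0.014 and its adjusted p 0.79, so the difference is no call among all features. Without combination replicate 2 the unadjusted p was 0.065, with a difference of -0.91. The combination mean of Gp5 and vehicle replicate 2 lay within the background range.

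Gp9, the glycoprotein IX subunit that brings the complex to the surface, was at 6.32 and 6.79 with vehicle and at 6.01 and 6.36 with the combination. The higher combination array lay between the vehicle arrays. The difference was -0.37 (SE 0.23), with an interval from -0.98 to 0.24 and a limma adjusted p of 0.94. The interval of Gp9 thus reached from 1.97-fold lower to 1.18-fold higher. The difference was -0.13 without vehicle replicate 2, -0.20 without combination replicate 1 and -0.61 without vehicle replicate 1.

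**Figure D1:**
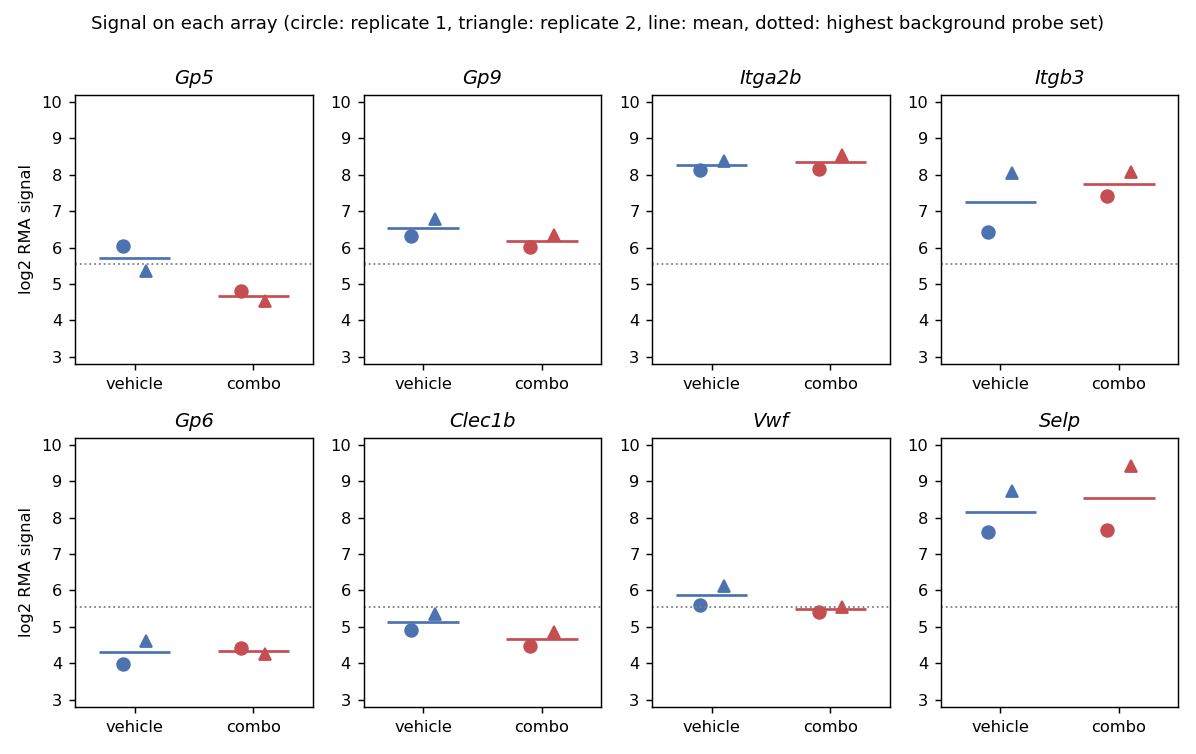
Log2 RMA signal of the 8 measured genes on each of the 4 arrays. Circles are replicate 1, triangles replicate 2, short lines group means, and the dotted line the highest single background probe set (5.55). Gp5, Clec1b and Vwf have both combination arrays below both vehicle arrays, and Itgb3 and Selp show the wide gaps between replicates.

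The integrin genes differed by less than their intervals allow to tell from 0. Itga2b, the alphaIIb chain (CD41), was at 8.13 and 8.39 with vehicle and at 8.17 and 8.55 with the combination. The arrays of the groups interleave. The difference was 0.10 (SE 0.20), with the narrowest interval among the 8 genes, from -0.41 to 0.62, which is 1.33-fold lower to 1.54-fold higher (limma adjusted p = 0.98). Its sign turned without vehicle replicate 1 (-0.02) and without combination replicate 2 (-0.09).

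Itgb3, the beta3 chain, which also pairs with the alphaV chain, was at 6.43 and 8.05 with vehicle and at 7.43 and 8.07 with the combination. Vehicle replicate 1 stood far below the other 3 arrays. The difference was 0.50 (SE 0.59), with an interval from -1.05 to 2.06 (limma adjusted p = 0.97). It was -0.31 without vehicle replicate 1 and 1.31 without vehicle replicate 2, where limma's unadjusted p was 0.021. The value of Itgb3 thus rested on which vehicle array was used.

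The activating receptors were dim. Gp6, the collagen receptor, was at 3.99 and 4.60 with vehicle and at 4.43 and 4.27 with the combination. All 4 arrays lay within the background range, and the combination arrays lay between the vehicle arrays. The difference of 0.05 (SE 0.24, limma adjusted p = 0.995) turned to -0.25 without vehicle replicate 1, to -0.03 without combination replicate 1 and to -0.0042 after a second quantile normalization.

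Clec1b encodes CLEC-2, the receptor of podoplanin. It was at 4.91 and 5.35 with vehicle and at 4.47 and 4.86 with the combination, all within the background range. The groups did not overlap, but the nearest arrays were only 0.05 apart. The difference was -0.47 (SE 0.23), with an interval from -1.08 to 0.14 (limma adjusted p = 0.93). It was -0.25 without vehicle replicate 2 and -0.27 without combination replicate 1.

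The alpha granule genes differed from each other in spread. Vwf, which encodes von Willebrand factor, the ligand of the GPIb-IX-V complex, was at 5.59 and 6.13 with vehicle and at 5.41 and 5.55 with the combination. The groups did not overlap, with 0.04 between the nearest arrays, and the combination mean lay within the background range. The difference was -0.38 (SE 0.22), with an interval from -0.97 to 0.21 (limma adjusted p = 0.94). It was -0.11 without vehicle replicate 2, and -0.65 without vehicle replicate 1, where the unadjusted p was 0.032.

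Selp encodes P-selectin, which moves from the granule membrane to the surface of an activated platelet. It was at 7.61 and 8.73 with vehicle and at 7.67 and 9.42 with the combination. The replicates of each group lay further apart than the group means, which were 8.17 ± 0.79 and 8.55 ± 1.23. The difference was 0.38 (SE 0.70), with the widest interval of the 8 genes, from -1.46 to 2.22 (limma adjusted p = 0.98). Its sign turned without vehicle replicate 1 (-0.18) and without combination replicate 2 (-0.49).

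**Figure D2:**
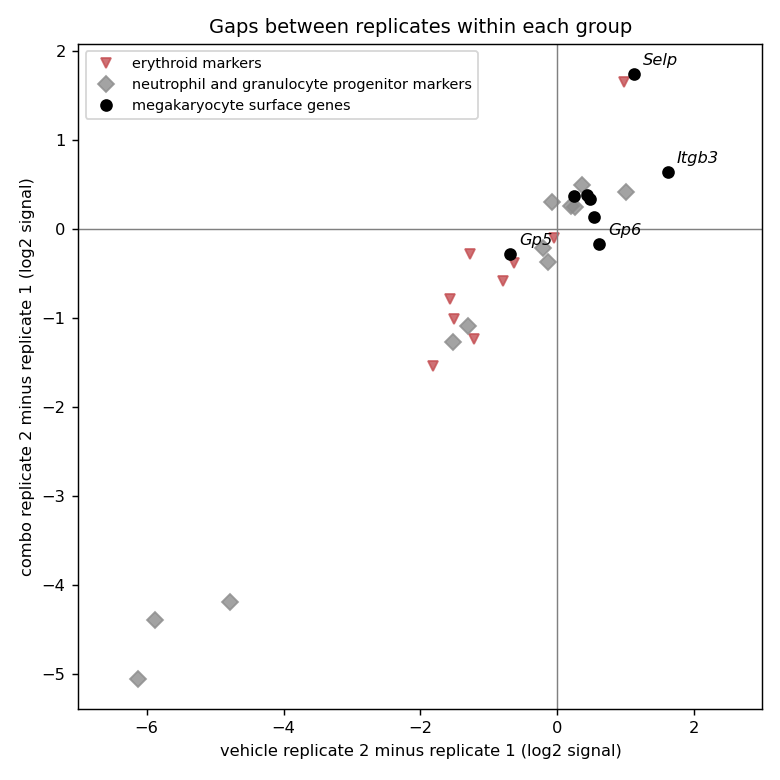
Gap between replicate 2 and replicate 1 on the vehicle arrays (horizontal, log2 signal) and on the combination arrays (vertical, log2 signal), for the 8 megakaryocyte surface genes (black circles), 9 erythroid markers (red triangles) and 12 neutrophil and granulocyte progenitor markers (grey diamonds). Selp lies at 1.12 and 1.74, most other surface genes lie right of 0 and above it, Gp5 lies on the opposite side, and 3 late neutrophil granule genes lie far to the lower left.

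The gaps between replicates were wide for these genes. The median size of the gap was 0.57 between the vehicle arrays and 0.36 between the combination arrays, against 0.18 and 0.19 over all features. Over the features with a mean above the background range it was 0.24 and 0.26. For 6 of the 8 genes replicate 2 was the higher array in both groups, which held for 29.8% of all features. Gp5 was the reverse in both groups, with gaps of -0.68 and -0.27, and Gp6 changed sign. Itgb3 had gaps of 1.62 and 0.64 and Selp of 1.12 and 1.74. Markers of other cell types differed between the replicates as well. Of 12 neutrophil and granulocyte progenitor markers, replicate 2 was the lower array in both groups for 7 and the higher in both for 4, Mpo, Elane, Prtn3 and Csf3r, with median gaps of -0.17 and -0.29. The widest gaps in that list were those of 3 late genes. The late neutrophil granule genes Camp, Ltf and Ngp were at 10.38 to 14.82 on vehicle replicate 1 and at 5.60 to 8.69 on vehicle replicate 2, with 10.22 to 14.98 and 6.04 to 9.93 on the combination arrays. Erythroid markers were lower on replicate 2 for 8 of 9 genes in both groups, with median gaps of -1.21 and -0.58. The part of these gaps in the values of the 8 genes was not tested.

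The cell type markers were examined for the same arrays. LK markers were present, with Kit between 9.62 and 10.51 and Cd34 between 9.38 and 10.48. All 6 measured LK markers had differences below 0 (median -0.34, 0 past limma's adjusted threshold). Both combination arrays lay below both vehicle arrays for 4 of them, against 13.9% of all features. The same held for 4310 of the 21898 features with a mean above the background range, where all 6 lay. Lmo2 (-0.59) and Myb (-0.51) had an unadjusted p under 0.05 in limma, against 2.44% of all features on the lower side. Of 9 measured megakaryocyte markers, which include the 8 genes, both group means lay within the background range for 2. Their summed linear signal was 5473 and 8154 on the vehicle arrays and 5943 and 8771 on the combination arrays, so the groups overlap. Most of that sum came from Pf4. The 8 genes alone summed to 802 and 1312 with vehicle and 844 and 1529 with the combination. Vwf and Selp are also endothelial genes. Of the 12 measured endothelial markers, 9 were within the background range in both groups, among them Cdh5, Kdr, Tek and Emcn, and the others were Selp and Pecam1, a gene that leukocytes and platelets share, above the range in both groups, and Vwf, above it with vehicle only. The sum of this list, most of it from Pecam1 and Selp, was 939 and 1244 with vehicle and 884 and 1802 with the combination.

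The platelet chemokine genes differed widely from each other. Ppbp, which encodes the precursor of the neutrophil attractant CXCL7, was at 4.95 and 4.33 with vehicle and at 9.80 and 10.52 with the combination. The difference was 5.52 (SE 0.33), with an interval from 4.64 to 6.40, and both vehicle arrays lay within the background range, so it may be understated. Limma's adjusted p of 0.13 missed the threshold. The interval of Ppbp lies above those of all 8 surface and granule genes, of which the highest bound is 2.22. Pf4, which encodes platelet factor 4, was at 12.19 and 12.74 with vehicle and at 12.32 and 12.82 with the combination. Its arrays interleave, with a difference of 0.10 (SE 0.28), an interval from -0.63 to 0.83 and a limma adjusted p of 0.99. Cxcl5 and Ccl5 differed by 0.02 and -0.05. Of the 4 chemokine genes, 0 passed over all features and 1, Ppbp, had an unadjusted p under 0.05, with a median of 0.06. The signs of Pf4, Cxcl5 and Ccl5 turned without vehicle replicate 1 and without combination replicate 2, and that of Cxcl5 also with the arrays centred or normalized again.

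**Figure D3:**
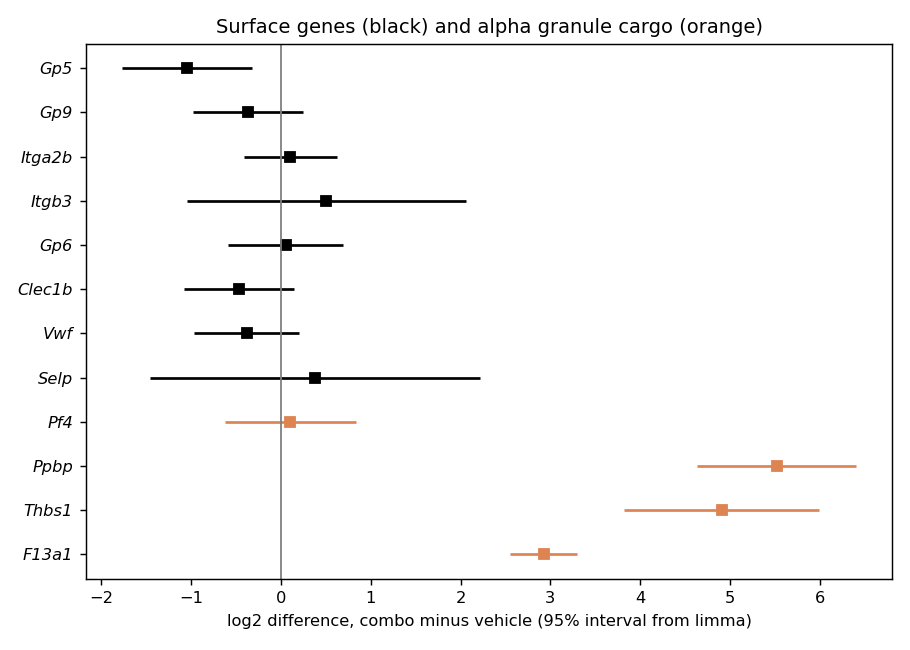
Log2 difference, combination minus vehicle, with limma's 95% interval (horizontal axis), for the 8 megakaryocyte surface and granule genes (black) and 4 genes of alpha granule cargo (orange). The orange genes are not a whole list: Thbs1 and F13a1 are the cargo genes with the smallest limma p, shown beside Pf4 and Ppbp. The 17 measured genes of the cargo list had a median difference of 0.02. Squares are differences and lines are intervals; the intervals of Ppbp, Thbs1 and F13a1 lie above 2.22, the highest bound of the black genes, while that of Pf4 includes 0.

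Other alpha granule cargo was mixed. Of 17 measured genes of 19 listed, 0 passed over all features, and at an unadjusted p under 0.05 in limma 3 were higher and 1 lower, against 3.14% and 2.44% of all features, with a median of 0.02. Thbs1, which encodes thrombospondin 1, was at 12.02 and 11.03 against 16.10 and 16.76, with an adjusted p of 0.19. F13a1, the transglutaminase chain of factor XIII that crosslinks fibrin, was at 8.52 and 8.58 against 11.38 and 11.57 (limma adjusted p = 0.094). Srgn, which encodes the granule proteoglycan serglycin, differed by 0.55, and Angpt1, the ligand of the endothelial receptor TIE2, by -1.35 (-0.83 without vehicle replicate 1). Thbs1, F13a1 and Srgn are also genes of monocytes and other myeloid cells. Of 11 monocyte and macrophage markers, both combination arrays lay above both vehicle arrays for 4, among them Ms4a6c and Itgam. They lay below both for 4, among them Ccr2 and Mrc1, against 20.4% and 13.9% of all features. Differences were above 0 for 5 of the 11 and below 0 for 6, with a median of -0.06. Their summed signals were 8661 and 12247 against 15185 and 16261. A sum weighs bright genes most, and Ms4a6c alone was at 11.49 and 11.62 against 13.27 and 13.19. The part of the monocyte and macrophage markers in the cargo values was not tested.

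Genes that build the alpha granule had differences below 0, each with a limma interval that includes 0. A difference below 0 was found for all 6 measured of 7 listed, against 29404 of all 65956 features. The median was -0.19 (-0.31 without vehicle replicate 1, -0.07 without vehicle replicate 2 and -0.07 without combination replicate 1). In limma 0 passed over all features and 0 had an unadjusted p under 0.05. Gfi1b, a transcription repressor needed for platelet granules, differed by -1.01 (SE 0.52), but by -0.32 without vehicle replicate 1 and -1.69 without vehicle replicate 2. Vipas39 differed by -0.31 (-0.12 without combination replicate 1 and -0.51 without combination replicate 2), Vps16 by -0.29 and Nbea by -0.08. The signs of Nbea and Vps16 turned without vehicle replicate 2 (0.10) and without vehicle replicate 1 (0.0050).

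Megakaryocyte transcription factors had differences below 0 for 12 of 13 measured genes of 14 listed. The median was -0.39, and both combination arrays lay below both vehicle arrays for 6 of them, against 13.9% of all features. The same held for 4310 of the 21898 features with a mean above the background range, where all 13 lay. None passed over all features. Zfpm1, which encodes the GATA1 partner FOG1, was at 10.47 and 9.71 against 9.43 and 8.81 (difference -0.97, SE 0.35, limma adjusted p = 0.89). It was the 1 gene with an unadjusted p under 0.05 in limma, against 2.44% lower and 3.14% higher over all features. That count was 2 without vehicle replicate 2 or combination replicate 2, and 0 with control rows kept. Etv6 differed by -0.45, Mef2c by -0.58 and Runx1 by -0.49. All 4 moved with single arrays: without combination replicate 1 the differences of Etv6, Mef2c and Runx1 were -0.26, -0.38 and -0.25, without vehicle replicate 2 those of Mef2c and Runx1 were -0.32 and -0.30, and without vehicle replicate 1 that of Zfpm1 was -0.59. Gata1, the main driver of the megakaryocyte and erythroid lines, differed by -0.23, and Fli1, an ETS factor that acts on platelet gene promoters, by -0.39. Erythroid markers, which share several of these factors, were below 0 for 9 of 9 measured genes with a median of -0.30. Their summed signal, most of it from Car1, was 251890 and 111426 with vehicle and 199823 and 96300 with the combination, ranges that overlap. LK markers were below 0 for 6 of 6, as given. Mast cell and basophil markers were below 0 for 7 of 8, with a median of -0.24. Their groups did not overlap for 4, all lower, against 13.9% of all features. The mast cell and basophil list, most of it from Mcpt8, summed to 44064 and 62526 with vehicle and 38052 and 46153 with the combination. Below 0 were 29404 of all 65956 features and 12194 of the 21898 with a mean above the background range. The LK list, which shares Runx1 and Gata2 with the factors, summed to 6821 and 8790 against 5892 and 6181. Gata2 is also in the mast cell and basophil list, and Gfi1b is in both the factor and the granule biogenesis lists. The counts of these lists are thus not separate. The part of the cell type markers in the values of the factors was not tested.

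Receptors and signalling partners of the glycoproteins were split. Of 31 measured genes of 34 listed, 2 were higher and 2 lower at an unadjusted p under 0.05 in limma, against 3.14% and 2.44% of all features, 0 passed over all features, and the median was -0.09 (between -0.24 and 0.08 with an array left out). Without vehicle replicate 1 the counts were 1 and 4, and without combination replicate 2 the lower count was 4. Fcer1g, the signalling chain of GPVI, was at 8.07 and 8.99 against 8.09 and 9.24, a difference of 0.14 (SE 0.50) whose sign turned without vehicle replicate 1 (-0.32) and combination replicate 2 (-0.44). Lat, the adaptor downstream of GPVI and of the T cell receptor, was at 10.29 and 10.26 against 8.68 and 9.32. P2ry1, an ADP receptor of platelets, was at 8.06 and 7.77 against 6.55 and 6.65, a difference of -1.31 (SE 0.16, limma adjusted p = 0.34). Cd36, a thrombospondin receptor also found on monocytes, was at 6.52 and 6.36 against 8.18 and 8.59, a difference of 1.95 (SE 0.19, limma adjusted p = 0.23). Cd226, an adhesion receptor, differed by 0.55.

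Cytoskeleton and granule genes of megakaryocytes had differences below 0 for 9 of 14 measured genes of 16 listed. At an unadjusted p under 0.05 in limma 3 were lower (1 without vehicle replicate 2) and 0 higher, against 2.44% and 3.14% of all features. None passed over all features, and the median was -0.19 (-0.31 without vehicle replicate 1). Tbxas1, which makes thromboxane, was at 10.06 and 10.03 against 9.38 and 9.45, and Gng11, a G protein gamma chain, at 6.69 and 7.05 against 6.28 and 6.23. Ppif, the mitochondrial cyclophilin, differed by -0.86 and Cavin2, a caveolar coat gene with its combination mean in the background range, by -1.01. Cavin2 was at -0.44 without vehicle replicate 2, -0.66 without combination replicate 1 and -1.58 without vehicle replicate 1, and Ppif at -0.56 without combination replicate 2. Tubb1, the platelet beta tubulin, and Myl9 were within the background range in both groups.

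**Figure D4:**
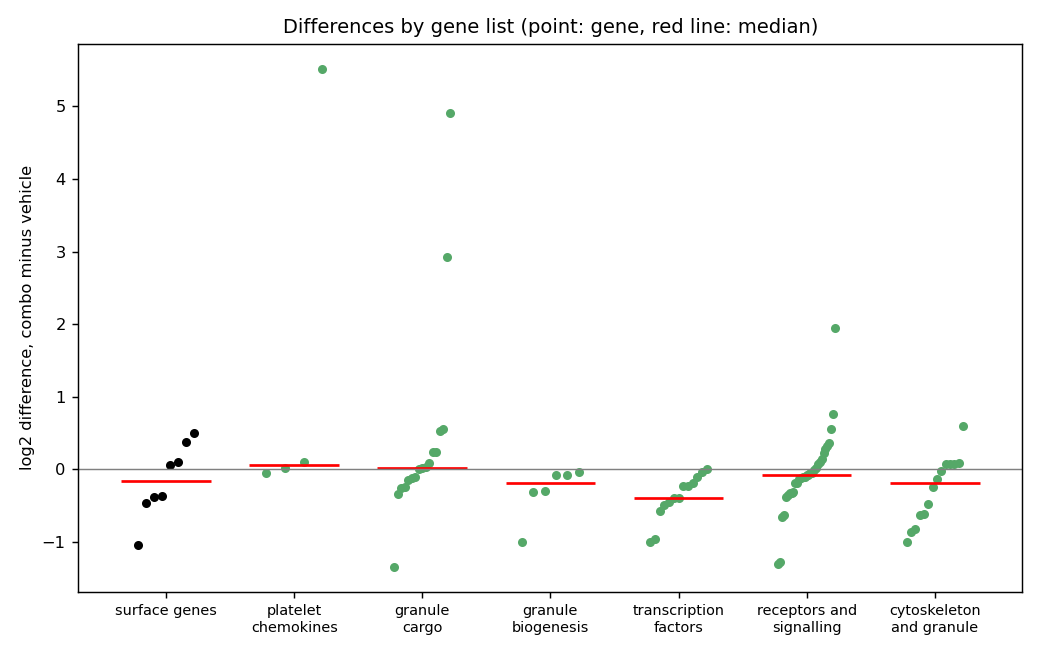
Log2 difference, combination minus vehicle (vertical axis), of each measured gene by list, with the median as a red line. The 8 surface genes (black) spread around a median of -0.16, the transcription factors lie around -0.39, and Ppbp, Thbs1 and F13a1 stand alone at 5.52, 4.91 and 2.92.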

How the data were processed

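The deposited table gives log2 signals. RMA and the Transcriptome Analysis Console are the tools named in the submitters' processing notes, where versions and a genome build are not stated. Per the labels, 10 ng of total RNA per sample was labelled with the GeneChip WT Pico kit. Precision is limited by the number of arrays, 2 in each group. Array medians lay between 4.36 and 4.44. RMA pulls the arrays towards a common distribution, which hides a change in the total RNA of a cell, and it compresses dim signals.

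Of 72688 rows, 6732 control rows were left out, and 30604 of the 65956 features had exactly 1 gene symbol. Entrez identifiers updated 827 symbols to RefSeq (GRCm38.p6). Limma 3.58.1 in R 4.3.3 (lmFit, eBayes, group only, two-sided, Benjamini-Hochberg over all features, threshold 0.05) gave differences, moderated SEs and 95% intervals. The fit was tested on simulated data of this comparison (10 simulations over 65956 features): it called 0% of features shifted by a log2 difference of 1 and 45.4% at a difference of 2. It called 80.2% at 3 and 94.8% at 5. In the real data Ppbp at 5.52 and Thbs1 at 4.91 were not called, so these shares may overstate what the fit can call here. All 8 measured genes were named, and of each further list the 4 genes with the smallest p, besides Pf4, Ppbp and Fcer1g. Gata1, Fli1, Tubb1, Myl9 and the cell type markers were named outside this rule, and promoter windows and motifs were picked, after the values were seen. The genes and lists were chosen with earlier results of these data known. As alternatives, the fit was repeated with the replicate number as a block, without each array in turn, with an intensity trend, a robust prior, filters on dim features, a second quantile normalization, median centring, control rows kept and the mean of a gene's probe sets.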

Additional observations from a re-analysis of the deposited data

How the results depend on the processing

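None of the 8 genes passed limma's threshold under the 13 alternatives (12 for Gp6, too dim for 1 filter), and the lowest adjusted p was 0.26, for Gp5 with the replicate number as a block (range for Gp5 over the alternatives 0.26 to 1.00). Of 103 single-gene values of these 8 under alternatives, 95 kept their sign and 8 turned it. The block, trend, prior, filters, kept control rows and probe set mean cannot change the log2 difference of these genes. Many of the 95 were thus fixed in advance. The 8 turns came without an array or after the second quantile normalization. Leaving out each array in turn gave, as lowest and highest log2 differences, -0.25 and 0.36 for Gp6, -0.086 and 0.29 for Itga2b, -0.31 and 1.31 for Itgb3, -0.49 and 1.25 for Selp, -0.17 and 0.38 for Pf4, -0.065 and 0.11 for Cxcl5, -0.65 and 0.54 for Ccl5, -0.44 and 0.71 for Fcer1g, -0.26 and 0.10 for Nbea and -0.59 and 0.0050 for Vps16. A second quantile normalization turned Gp6 to -0.0042 and Cxcl5 to -0.0091, and centring the arrays turned Cxcl5 to -0.030; the cause was not tested. Without 1 array, 0 to 1 of the 8 genes were higher and 0 to 2 lower at an unadjusted p under 0.05, and 0 to 4 and 3 to 5 had groups that do not overlap, higher and lower. The median then lay between 0.14 and 0.24 for the platelet chemokines and between -0.46 and -0.26 for the transcription factors. The cargo median was -0.059 with features above the median only and -0.031 with centred arrays.

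The replicate numbers pair nothing in the labels. The gaps between replicates 2 and 1 of the groups correlated at 0.33 across all features, which are not independent. The fit with the replicate number as a block called 19 features against 2. It left 2 of the 8 genes lower at an unadjusted p under 0.05, Gp5 and Clec1b (3.89% of all features in that fit), and 1 cargo gene past the threshold, F13a1 (limma adjusted p = 0.047). Unadjusted, it had 6 lower transcription factors, 5 lower cytoskeleton genes and 4 lower receptors below 0.05. Between arrays numbered 1 the median of the 8 genes was -0.07, and between those numbered 2 it was -0.38.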
